A study of Mus musculus with 2 samples.

Results

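Sequence motifs of the PAX family and of the Sine oculis homeobox family (Six3 and SIX2) were followed through single-cell chromatin accessibility of the embryonic mouse retina. The 7 motifs were chosen by name among the 579 in the motif tables: 5 paired-domain motifs (Pax6, Pax2, PAX5, PAX1 and PAX9) and 2 Sine oculis motifs (Six3 and SIX2). Names are spelled as the tables spell them, and a capitalised name refers to the motif, not to expression of the gene. Further motifs of these families, PAX3, PAX4 and PAX7 among them, were kept apart from the 7. The samples were 2 replicate libraries of dissociated wild-type (WT) mouse retina at stage E14.5, made with the 10x Genomics droplet assay for accessible chromatin. There was 1 group and no treatment or mutant, so samples were not compared with each other, and nothing in the labels ties the replicates to different animals. SDs below describe variation from library to library, part or all of which may be technical. Unless stated otherwise, p-values come from fits that take out any shift common to all cells of a library. They measure how far a difference between groups of cells varied between the 2 libraries, with the spread partly borrowed across motifs.

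PAX proteins bind DNA through a paired domain, and Sine oculis proteins through a divergent homeodomain. PAX6 and SIX3 belong to the eye-field network that sets up the eye, and PAX6 goes on to maintain the competence of dividing retinal progenitors. PAX2 marks the optic stalk and optic nerve head, PAX5 is best known from B cells and the midbrain, PAX1 and PAX9 act in the sclerotome and the pharyngeal pouches, and SIX2 maintains kidney progenitors. A motif count is the number of transposase cuts, over all accessible peaks, in peaks that hold a match to the motif; it is neither binding nor expression of the factor.

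To show what the 2 families read in DNA, short cores known for them were searched on both strands in the RefSeq promoters of build GRCm38.p6, 250 bases before to 50 after each start. These cores come from general knowledge of the families and are not the matrices behind the deposited counts, which were not used here. The paired-domain core GTCACGC was found in 2.09% of 32851 promoter windows, its variant TTCACGC in 1.26%, and the Sine oculis core GTATCA in 5.46%. All 7 member genes had a promoter entry, 10 windows in all. Of these, 1 held a core: the Pax1 promoter holds the reverse complement of GTCACGC, at chr2:147364940-147364986 on the plus strand. Sox2, which is no member and was chosen after the matches were seen, shows a Sine oculis core in its promoter window, at chr3:34650005-34650044 on the plus strand. The capitals mark the core in each.
Pax1: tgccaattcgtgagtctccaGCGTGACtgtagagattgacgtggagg
Sox2: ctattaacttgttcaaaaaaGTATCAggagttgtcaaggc
A match of these letters is a description of the window and not a binding site.

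Cells were barcodes with at least 300000 motif counts. Of the barcodes, 1828 occurred in both libraries, and a shared barcode was used only in the library where it was deeper. This left 890 of 2422 barcodes in replicate 1 and 1051 of 3033 in replicate 2, with a median of 3519151 and 3523871 motif counts per cell. The labels do not say why so many barcodes are shared. Whether the 2 libraries are independent, as the tests take them to be, was not tested. Low counts were mostly even: 93.6% and 93.1% of the values from 1 to 10 over all barcodes were multiples of 2, and counting noise was therefore computed in units of 2 counts.

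The 7 motifs spanned a wide range of abundance, with Pax2 far above the rest and Pax6 among the rarest. The share of the Pax2 motif was 6871 counts per 1000000 motif counts (CPM) in replicate 1 and 6816 in replicate 2, rank 41 of 579 in both. PAX5 stood at 278 and 269 CPM, and SIX2 at 196 and 197. Six3, the other motif of its family, stood at 53.0 and 50.8 CPM. The 3 rarest were PAX9 at 41.6 and 40.6, PAX1 at 36.4 and 35.9 and Pax6 at 35.7 and 36.6 CPM. PAX1 and Pax6 changed places between the libraries and cannot be ordered; the other neighbours kept their order and did not overlap. The Pax2 motif had 192 and 186 times the counts of the Pax6 motif. These shares are set by how many peaks match each motif as well as by how open those peaks are.

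**Figure D1:**
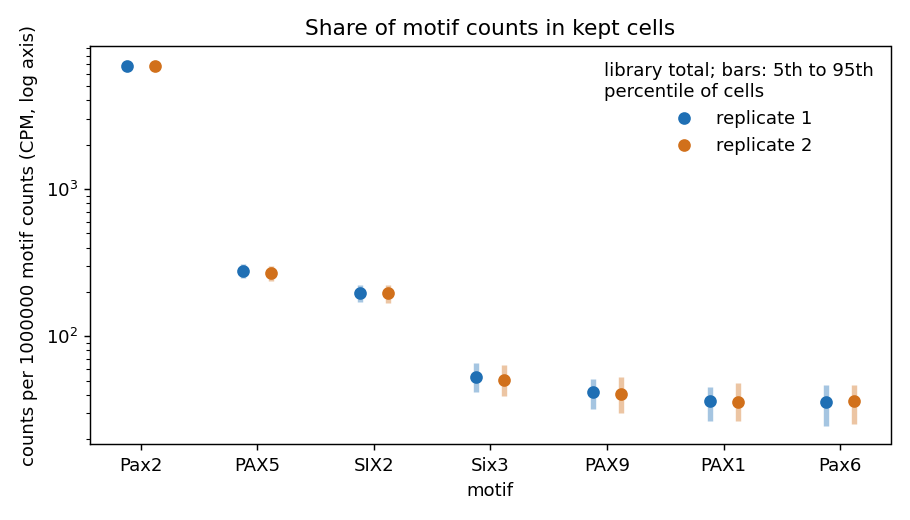
Share of each motif in CPM, on a log axis, for the 2 libraries (points) with the range from the 5th to the 95th percentile of cells (bars). Pax2 lies near 6800 CPM and Pax6, PAX1 and PAX9 lie between 35.7 and 41.6.

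The libraries agreed closely on these shares. The log2 ratio of replicate 1 to replicate 2 was between -0.034 for Pax6 and 0.061 for Six3, beside a median absolute ratio of 0.021 over all 579 motifs. The mean share of the Pax6 motif was 36.1 ± 0.605 CPM (SD, n = 2). A Pax6 count was present in all 890 kept cells of replicate 1 and missing from 1 kept cell of replicate 2. The mean cell had 133 Pax6 counts in each library, against 25596 and 24813 Pax2 counts, so the Pax6 value of 1 cell is far less precise.

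Pax6 was the member that varied most between cells beyond counting noise. Its coefficient of variation in excess of counting noise was 11.4% in replicate 1 and 12.1% in replicate 2. Counting noise made up 65.8% and 66.1% of the variance of the Pax6 share with 2 counts as the unit, and 32.9% and 33.1% with single counts as the unit. PAX1 had an excess of 8.58% and 8.12%, second by the mean of the libraries, though Six3 lay above it in replicate 2. Six3 had 6.82% and 8.65%, PAX9 6.22% and 8.03%, SIX2 5.93% and 5.71%, and PAX5 5.63% and 5.54%. Pax2 was the steadiest member, at 1.25% and 1.34%, beside a median of 4.94% and 4.84% over all motifs. Rare motifs have a larger excess in general. Against the trend on the mean, Pax6 lay 0.29 and 0.36 above on the log2 scale, at ranks 152 and 111 of 579. Pax2 lay at -1.04 and -0.97, among the steadiest motifs in both libraries (ranks 565 and 562 of 579).

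Across cells, the measured Pax6 share correlated little with those of the other members. All correlations below were taken within a library after the log10 cell total had been regressed out, over 890 and 1051 cells; the motifs share peaks and cells, and the values are a description. The Spearman correlation of Pax6 was -0.018 and -0.10 with Pax2, -0.082 and -0.041 with PAX5, 0.031 and -0.0082 with PAX1, and 0.058 and -0.027 with PAX9. With the Sine oculis motifs it was -0.0064 and 0.0074 for Six3 and 0.072 and 0.11 for SIX2. In absolute size all but the replicate 2 values for Pax2 and SIX2 were below the median over all motif pairs, 0.094 and 0.091. With 2 counts as the unit, counting noise made up 65.8% and 66.1% of the Pax6 variance. For PAX1, PAX9 and Six3 it made up between 73.1% and 84.6%. Low correlations among these rare motifs therefore cannot show that their accessibility varies independently. PAX1 and PAX9, whose proteins form 1 subfamily, had the highest correlation of any pair of members, at 0.82 and 0.81. PAX1 and PAX9 had equal counts in only 13 of 890 and 46 of 1051 cells, so they are not the same row listed again. Cuts in a peak that matches both motifs enter both counts, and the part of such peaks was not tested. Pax2 and PAX5, which form another subfamily, correlated at 0.14 and 0.17. Six3 and SIX2 showed almost no measured correlation, at -0.0025 and -0.020.

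The members also differed in the motifs they moved with. Pax6 ran highest with BARX1 (0.19 and 0.21), BSX (0.17 and 0.21) and TEAD3 (0.17 and 0.20), and lowest with the GC-rich motifs Zfx, SP2 and SP1, which lay between -0.22 and -0.24. Pax2 and PAX5 were high with such motifs instead. Pax2 ran highest with TFE3 (0.56 and 0.50), Ahr::Arnt and SP2, and lowest with 3 homeodomain motifs that share identical counts, Prrx2, PRRX1 and RAX2 (-0.55 and -0.49). PAX5 ran highest with SP4 (0.44 and 0.40), KLF14 and SP8. PAX1 and PAX9 were both high with NRF1, and PAX1 ran lowest with the bHLH motifs Bhlha15, Ascl2 and MSC (-0.16 and -0.15 for Bhlha15). Six3 ran highest with ONECUT1 (0.13 and 0.12), TGIF2 and MEIS2. SIX2 ran highest with the homeodomain motifs PDX1 and VAX2, which have identical counts (0.30 and 0.25), and with MEOX2.

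**Figure D2:**
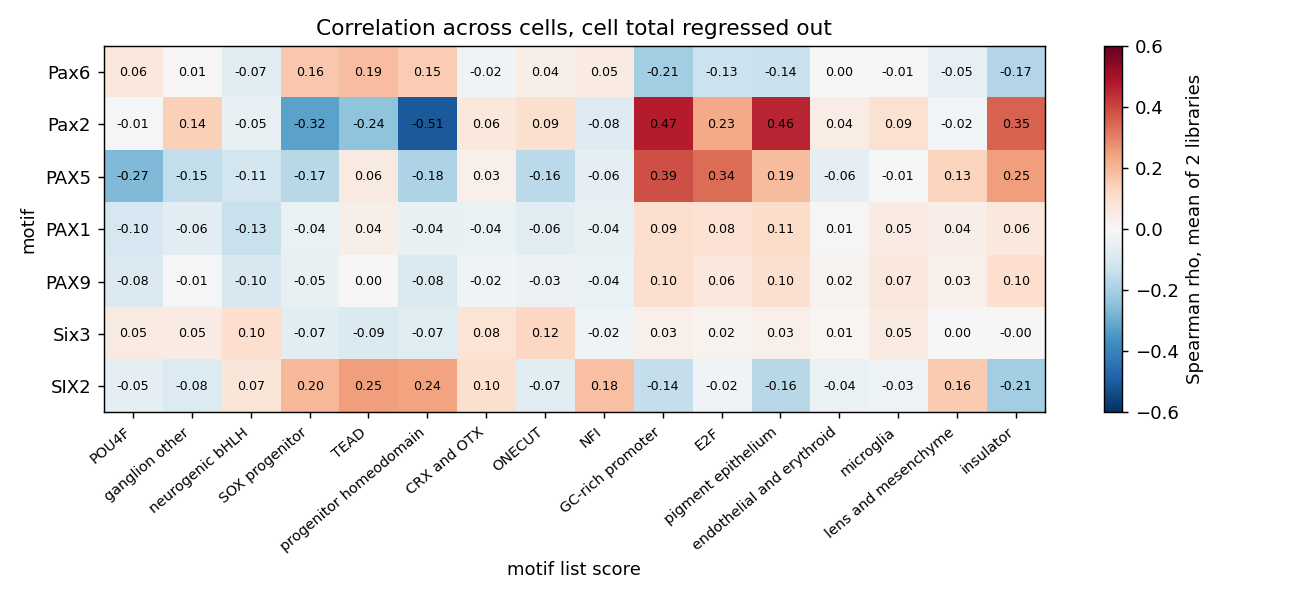
Spearman correlation across kept cells of each member (rows) with the score of each motif list (columns), mean of the 2 libraries, with the log10 cell total regressed out. Pax2 and PAX5 are positive with the GC-rich promoter list, where Pax6 and SIX2 are negative.

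The Pax6 motif was then set against groups of motifs that stand for retinal progenitors and neurons. For each list of motifs, the cells of a library were sorted by the mean level of the list and cut into tertiles. Counts were summed per library and tertile, and the highest tertile was compared with the lowest in edgeR's quasi-likelihood test, with the library as a block and Benjamini-Hochberg adjustment over all 579 motifs; called means an adjusted p under 0.05. Lists share peaks with other motifs, and between 49.2% and 85.5% of all motifs were called in these sorts, so each count of members is read beside the share of all motifs called. Over the 8 lists, 37 of the 56 pairs of a member and a list were called. Beside that range over all motifs, this count is not read as a result about the members.

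Pax6 was higher in the cells richest in progenitor motifs. In replicate 1 the Pax6 share was 34.6 CPM in the lowest and 36.8 in the highest tertile by the TEAD list, the effectors of Hippo signalling in dividing cells. In replicate 2 it was 34.9 and 38.2, and in both libraries the middle tertile lay between. The log2 difference was 0.107 ± 0.013 (SE, adjusted p = 0.000219, edgeR). Of the members 6 were called for TEAD, beside 84.3% of all motifs, and Pax6 ranked 47 of 579 by the size of its difference. By the SOX list, whose Sox2 and SOX9 are progenitor factors, Pax6 stood at 34.8 and 36.7 CPM in replicate 1 and at 35.2 and 38.0 in replicate 2. That difference was 0.085 ± 0.013 (adjusted p = 1.35e-10, edgeR), with 6 members called beside 85.0% of all motifs. By the progenitor homeodomain list (RAX, LHX2 and LHX9 among others), Pax6 stood at 34.8 and 36.5 in replicate 1 and at 35.5 and 37.4 in replicate 2. That difference was 0.080 ± 0.010 (adjusted p = 4.67e-05, edgeR), with 4 members called beside 85.5% of all motifs. With the score of the GC-rich promoter list regressed out, as described below, only the TEAD difference among these was still called.

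Pax6 was lower in the cells richest in neurogenic bHLH motifs and differed in sign between the libraries by the ganglion cell motifs. By the neurogenic bHLH list, which holds NEUROD1, NEUROG2 and Atoh1, drivers of neuronal fate, Pax6 stood at 36.2 CPM in the lowest and 34.5 in the highest tertile of replicate 1. In replicate 2 it stood at 37.0 and 35.4. The log2 difference was -0.062 ± 0.013 (adjusted p = 1.38e-05, edgeR), with 5 members called beside 59.2% of all motifs. With each cell thinned to 300000 counts it was 0.000842 and not called. By the POU4F list, the factors of ganglion cell differentiation, Pax6 went from 34.3 to 36.0 CPM in replicate 1 and from 36.2 to 35.9 in replicate 2. The libraries differed in sign, and the difference of 0.034 ± 0.017 was not called (adjusted p = 0.109, edgeR), where 4 members were called beside 56.1% of all motifs. Differences by the CRX and OTX list, of photoreceptor precursors, and the ONECUT list, of horizontal and ganglion cells, were -0.0094 ± 0.014 and 0.0023 ± 0.015 and were not called (adjusted p = 0.605 and 0.896, edgeR). With all deposited barcodes, shallow ones included and shared ones in both libraries, the first was -0.074 and called (adjusted p = 0.00271, edgeR).

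**Figure D3:**
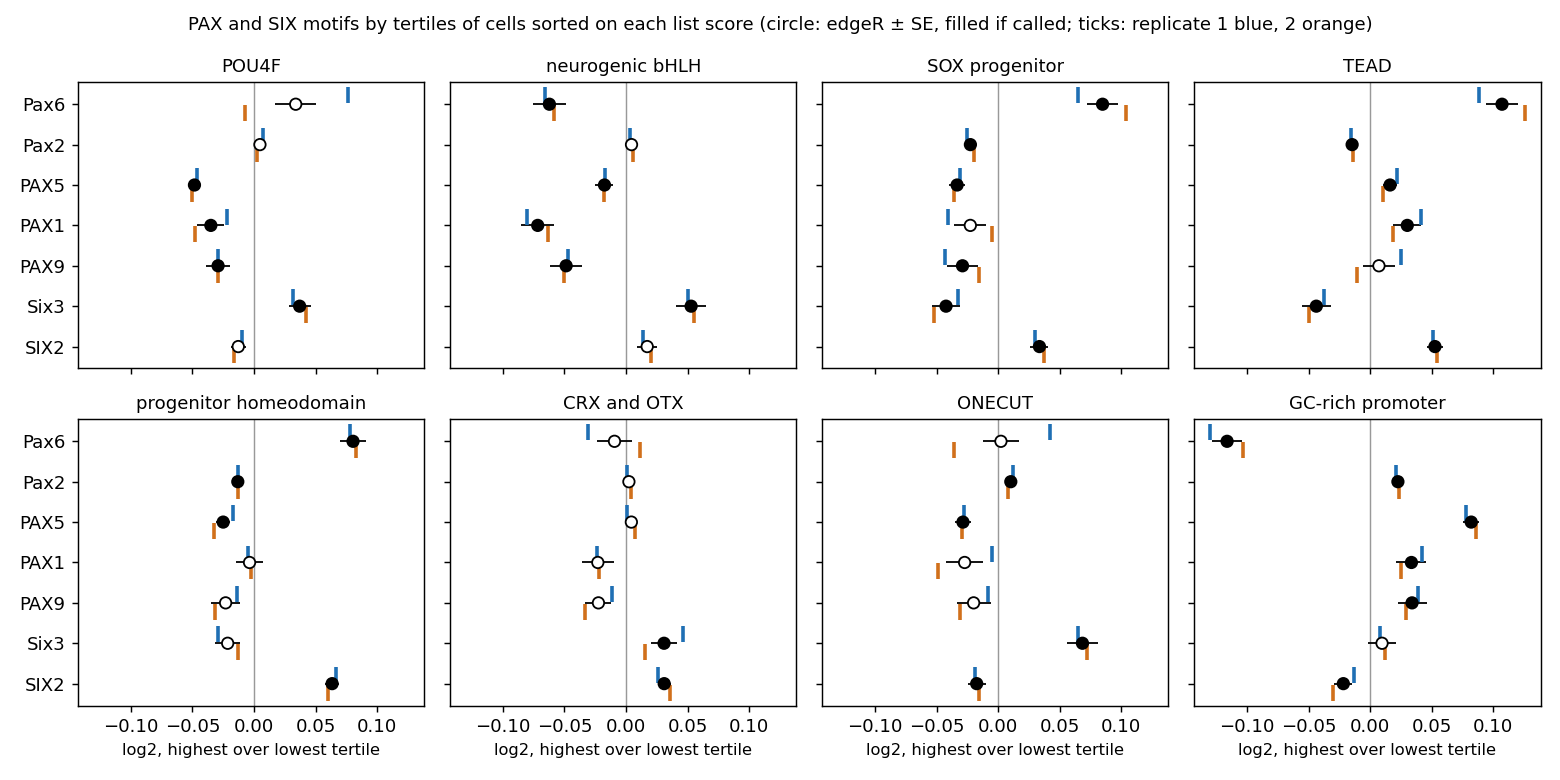
Log2 difference of each member between the highest and lowest tertile of cells for 8 motif lists. Circles are edgeR estimates with SE, filled where called; ticks are the values of replicate 1 (blue) and replicate 2 (orange). Pax6 lies at 0.107 for TEAD and at -0.116 for the GC-rich promoter list.

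The GC-rich promoter list moved with these differences. It holds 15 motifs of the SP, KLF and EGR families and ZBTB7A, which bind GC-rich promoters. Between its lowest and highest tertile, Pax6 fell from 37.1 to 34.0 CPM in replicate 1 and from 38.1 to 35.4 in replicate 2. The difference of -0.116 ± 0.012 (adjusted p = 3.66e-20, edgeR) ranked 11 of 579 by size, where 6 members were called beside 78.9% of all motifs. When the promoter score was regressed out of each list score before the cells were sorted, the Pax6 difference was 0.081 for TEAD (adjusted p = 7.33e-06, edgeR) and -0.079 for neurogenic bHLH (adjusted p = 9.66e-06). For the SOX list it was then 0.015 (adjusted p = 0.286, edgeR) and for the homeodomain list -0.0099 (adjusted p = 0.522), neither of them called. For POU4F it turned to -0.032 and was called (adjusted p = 0.0447, edgeR). Without the library block, 1 of the 37 calls over the lists was left, that of SIX2 for the homeodomain list. The 5 Pax6 calls were lost: their differences had the same size, and the adjusted p was 0.0666 for TEAD, 0.106 for SOX, 0.100 for the homeodomain list, 0.403 for neurogenic bHLH and 0.0622 for the promoter list (edgeR).

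**Figure D4:**
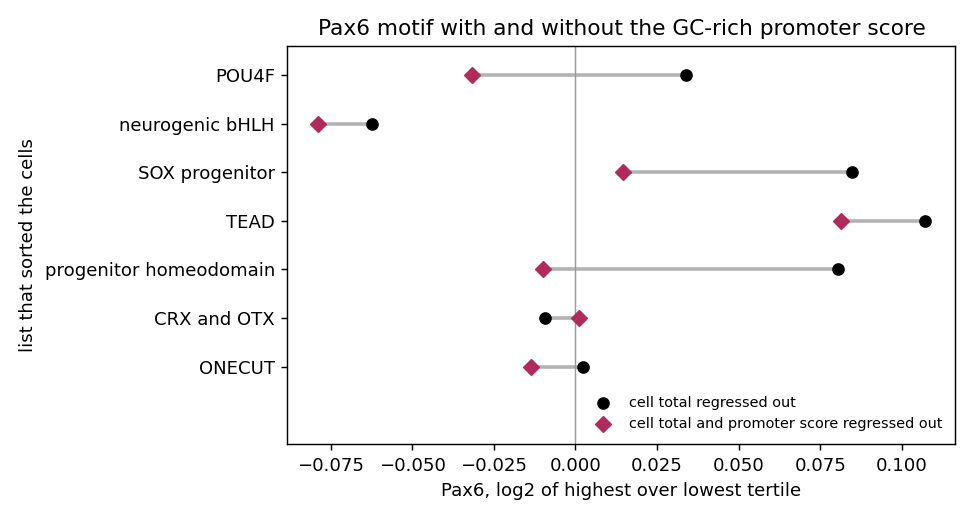
Pax6 log2 difference between the highest and lowest tertile of cells for 7 lists, with the cell total regressed out of the list score (circles) and with the GC-rich promoter score regressed out as well (diamonds). TEAD stays at 0.081 and neurogenic bHLH at -0.079, while SOX and homeodomain move to 0.015 and -0.0099.

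Sequencing depth moved with Pax6 too. Between the shallowest and deepest tertile of cells the Pax6 share went from 34.2 to 36.4 CPM in replicate 1 and from 35.5 to 37.2 in replicate 2. This was a log2 difference of 0.072 ± 0.012 (adjusted p = 0.00189, edgeR), with 3 members called beside 57.9% of all motifs. With all deposited barcodes it was 0.106 and not called (adjusted p = 0.610, edgeR). The cell total had been regressed out of every list score. In the sort by TEAD, the median total of the lowest and highest tertile was still 3221120 and 3772130 in replicate 1, and 3370110 and 3523200 in replicate 2. The part of depth in the differences by list was not tested beyond the thinning and the alternatives for deep and shallow cells.

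The other 4 paired-domain members had the opposite sign to Pax6 for the SOX, homeodomain and promoter lists in both libraries. PAX4, which was kept apart from the members, had the sign of Pax6 for these lists in both libraries. PAX1 was not called for SOX, nor PAX1 and PAX9 for the homeodomain list. With the promoter score regressed out, Pax6 was at 0.015 for SOX and -0.0099 for the homeodomain list, neither called. PAX5 was then at 0.022 and 0.018, while Pax2 and PAX9 stayed negative for SOX, at -0.011 and -0.017. Within each library, Pax6 was set against the range of Pax2, PAX5, PAX1 and PAX9. For SOX it stood at 0.065 and 0.104, while the other 4 lay between -0.043 and -0.025 in replicate 1 and between -0.036 and -0.0050 in replicate 2. For the homeodomain list it stood at 0.078 and 0.083, above all 4 in both libraries, and for TEAD at 0.088 and 0.126, again above all 4. For the promoter list it stood at -0.130 and -0.103, below all 4, which were between 0.021 and 0.086. For CRX and OTX it lay outside the range on opposite sides in the 2 libraries. For bHLH it lay within the range in both. With 2 libraries an exact sign-flip test of such differences cannot go below p = 0.5, so this comparison rests on the values alone.

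PAX5 was higher in the cells richest in promoter motifs. It rose from 271 to 286 CPM between the lowest and highest promoter tertile of replicate 1 and from 262 to 277 in replicate 2, a log2 difference of 0.082 ± 0.0065 (adjusted p = 7.19e-34, edgeR). It was lower with the POU4F list, at -0.048 ± 0.0052 (adjusted p = 5.03e-05, edgeR), in both libraries. With the promoter score regressed out this was -0.0070 and no longer called, and the PAX5 differences for SOX and the homeodomain list, -0.033 and -0.025, turned to 0.022 and 0.018. Pax2 differences were small in size, between -0.022 and 0.023 over the 8 lists. Of them 5 were called, beside 49.2% to 85.5% of all motifs per list, and Pax2 counts were the highest of the members. PAX1 and PAX9 were lower in the cells richest in neurogenic bHLH motifs, at -0.072 ± 0.013 and -0.049 ± 0.013 (adjusted p = 4.78e-07 and 0.000459, edgeR). PAX1 fell from 37.1 to 35.0 CPM in replicate 1 and from 36.5 to 34.7 in replicate 2.

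Six3 and SIX2 went different ways. SIX2 was higher by the progenitor lists, as Pax6 was, but not lower by the neurogenic bHLH list. Its share went from 191 to 198 CPM between the homeodomain tertiles of replicate 1 and from 193 to 200 in replicate 2. The difference was 0.063 ± 0.0058 for the homeodomain list, 0.053 ± 0.0062 for TEAD and 0.034 ± 0.0073 for SOX (adjusted p = 4.00e-06, 0.00019 and 6.97e-06, edgeR). Six3 was lower by the last 2 of these, at -0.044 ± 0.012 for TEAD and -0.042 ± 0.011 for SOX (adjusted p = 0.0112 and 0.000257, edgeR). It was higher in the cells richest in neuronal motifs, at 0.069 ± 0.013 for ONECUT, 0.053 ± 0.012 for neurogenic bHLH and 0.037 ± 0.0088 for POU4F (adjusted p = 1.83e-07, 4.17e-05 and 0.00506, edgeR). Six3 stood at 52.0 and 54.1 CPM in the lowest and highest ONECUT tertile of replicate 1 and at 49.8 and 52.2 in replicate 2. For ONECUT 4 members were called, beside 67.4% of all motifs, and for CRX and OTX Six3 and SIX2 were called, both higher, beside 49.2%. The POU4F difference of Six3 was -0.0097 in thinned cells and not called. Its call for TEAD was lost with all deposited barcodes, that for SOX in thinned cells and that for CRX and OTX in DESeq2, among other alternatives. SIX2 was also higher in the deepest than in the shallowest tertile of cells, at 0.044 ± 0.0065 (adjusted p = 0.00104, edgeR). By the promoter list SIX2 was lower, as Pax6 was, at -0.022 ± 0.0073 (adjusted p = 0.00438, edgeR). By neurogenic bHLH, where Pax6 was lower, SIX2 was at 0.017 ± 0.0082 and not called (adjusted p = 0.0594, edgeR).

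Cells were also clustered without the 11 motifs of both families, and the members were measured in the 6 resulting clusters. The peaks of the members still entered through other motifs in them. Cluster 3, with 14.0% and 13.9% of the cells of replicates 1 and 2, was led by POU4F1, POU4F3 and POU4F2 and was called POU4F-like. Cluster 6, with 15.2% and 13.6%, was led by NEUROD1, NEUROD2 and Neurog1 and was called neurogenic bHLH-like. The other 4 clusters met no naming rule and go by number. MYBL1 led clusters 1, 2 and 5, followed by Sox1 and SOX4 in cluster 2 and by E2F1 in cluster 5, and cluster 4 was led by ZBTB7B and ZBTB7C. Each cluster was tested against the mean of the others in edgeR's quasi-likelihood test, over the 579 motifs.

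The Pax6 level had 3 tiers over the clusters. It was highest in cluster 5, at 37.0 and 38.6 CPM, and cluster 2, at 37.1 and 37.8, whose ranges overlapped. Clusters 1, 3 and 6 formed the middle, between 34.8 and 36.0 CPM, again with overlapping ranges. Cluster 4 was lowest, at 30.3 and 33.0 CPM, below every other cluster in both libraries. The log2 difference was 0.107 ± 0.020 in cluster 5 and 0.094 ± 0.019 in cluster 2 (adjusted p = 0.000508 and 0.000824, edgeR), and -0.196 ± 0.026 in cluster 4 (adjusted p = 3.18e-05). In the POU4F-like cluster it was -0.0052 ± 0.021 and in the bHLH-like cluster -0.011 ± 0.020, neither of them called. Members called were 4 of 7 in cluster 2 beside 82.4% of all motifs, 4 in cluster 5 beside 75.5%, 7 in cluster 4 beside 85.5%, 4 in cluster 3 beside 73.6%, 5 in cluster 6 beside 62.2% and 2 in cluster 1 beside 59.6%.

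Cluster 4 stood apart in depth, in promoter signal and in the CRX, OTX and progenitor lists. It held 6.85% and 6.28% of the cells, with a median total of 0.594 and 0.672 times that of its library. The summed share of the promoter list was 84942 and 84786 CPM there, against 77434 to 79569 in the other clusters. That of the CRX and OTX list was also highest there, at 5046 and 5086 CPM against 4633 to 4806 elsewhere. Crx was among the 10 motifs of highest fold in cluster 4, short of the 3 markers a name needs. The SOX, TEAD and progenitor homeodomain lists were lowest there in each library, with TEAD at 7068 and 7004 CPM. Cluster 5 was the deepest, at 1.28 times the library median in both. The part of depth, promoter signal and the other lists in the levels of Pax6 and the other members in these clusters was not tested. The other markers listed for cells outside the retina did not name any cluster.

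**Figure D5:**
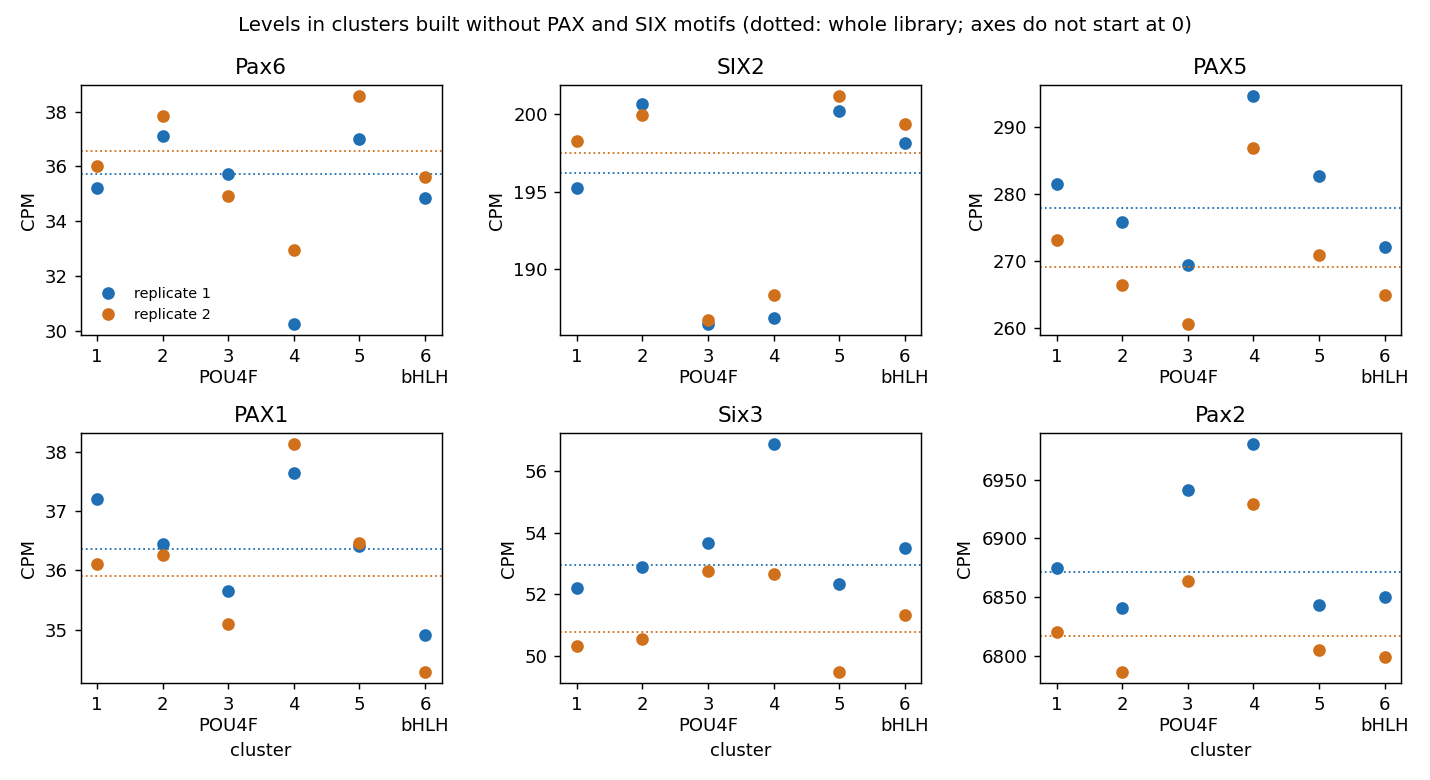
Levels of 6 members in CPM in 6 clusters built without the motifs of both families; points are the 2 libraries and dotted lines the level over the whole library (axes do not start at 0). Pax6 is lowest in cluster 4 in both libraries, and SIX2 is lowest in clusters 3 and 4.

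The other members drew their own patterns over the clusters. SIX2 was lowest in the POU4F-like cluster, at 186 and 187 CPM, with a log2 difference of -0.075 ± 0.0067 (adjusted p = 2.03e-06, edgeR), and cluster 4 came next above it without overlap. SIX2 was highest in clusters 5 and 2, with means of 200.7 ± 0.675 and 200.3 ± 0.501 CPM (SD, n = 2), at 0.046 ± 0.0066 and 0.044 ± 0.0065 (adjusted p = 8.25e-05 and 7.43e-05, edgeR). In the bHLH-like cluster, where Pax6 was not called, SIX2 was called higher, at 0.033 ± 0.0066 (adjusted p = 0.00142, edgeR). PAX5 was lowest in the POU4F-like cluster too, at 269 and 261 CPM, and highest in cluster 4, at 295 and 287. PAX1 and PAX9 were lowest in the bHLH-like cluster, PAX1 at 34.9 and 34.3 CPM, with differences of -0.079 ± 0.014 and -0.070 ± 0.015 (adjusted p = 0.000747 and 0.00197, edgeR). Six3 was called in clusters 4 and 5 alone, at 0.078 ± 0.017 and -0.053 ± 0.014 (adjusted p = 0.00147 and 0.00601, edgeR), and the ranges of all its neighbouring clusters overlapped. The highest cluster had 1.23 and 1.17 times the lowest for Pax6 and 1.02 times for Pax2 in both libraries. The span of the log2 differences over the clusters was 0.303 for Pax6, 0.161 for PAX5, 0.159 for PAX1, 0.121 for SIX2 and 0.039 for Pax2. With all deposited barcodes, which gave 5 clusters, it was 0.448 for Pax6, 0.409 for PAX5, 0.207 for SIX2 and 0.151 for Pax2. It was 0.092 for PAX1 in thinned cells, and 0.062 for Pax2 with a mean count of at least 100.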

How the data were processed

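The deposited values were raw counts of 579 motifs per cell barcode, written by software version 1.1.0 per the file headers; Cell Ranger and mouse build mm10 are named in the submitters' processing notes. How peaks were called and matched to motifs is not given in the sources used here. The members and motif lists were chosen with earlier results of these data known, and motifs were named by family, by list or as the 3 nearest and farthest of each member among those within rank 20 in both libraries.

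Kept cells had at least 300000 counts. Shares are counts per 1000000 motif counts (CPM). List scores were means of scaled log2(counts per 10000 + pseudocount of 1) with the log10 cell total regressed out. Clustering used 15 principal components, 20 neighbours and Leiden resolution 0.5 (scanpy 1.11.5, igraph 0.11.9) on 568 motifs; a cluster took the name of a list that supplied at least 3 of its top 10 motifs by fold. No doublet caller was run. Some motifs are not reported here. Sums per library and tertile, or cluster with at least 20 cells, were tested with edgeR 4.0.16 (R 4.3.3): TMM, library block, quasi-likelihood F test, threshold 0.05. The fits had 2 residual degrees of freedom for tertiles and 5 for clusters and borrow the spread across motifs. The dispersion was kept at or above 0.0001, since edgeR's deviance formula for smaller values fails at counts this high: for Pax6 by POU4F it gave a deviance of 402 where the exact formula gives 6.85. This was set after the data were seen. In simulated data on the POU4F tertiles, 98 of 100 motifs changed by 1.05-fold were recovered and 4 of 379 unchanged motifs were called. The simulation drew each motif independently, at the dispersion fitted to these sums, without paired counts or shared peaks. It therefore cannot show how often the test errs in the real counts.

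Alternatives were DESeq2 1.42.0, no TMM, no block, other cell sets, thinning, quintiles, regressing out the promoter score and 2 others added after seeing the data (a dispersion of 0, and single counts as the unit of noise). The set of all deposited barcodes had no minimum of counts and kept shared barcodes in both libraries. The kept cells held 98.3% and 97.3% of its counts, and 898 and 1074 of its barcodes had a Pax6 count of 0. Only 1 group exists, so replicate numbers pair no groups; the block sets sums of the same library against each other.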

Additional observations from a re-analysis of the deposited data

How the results depend on the processing

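Pax6 differences kept their sign and call for TEAD and the promoter list under every alternative with a test except the fit without the replicate block. Without the replicate block the estimates were the same, at 0.107 for TEAD, 0.085 for SOX, 0.080 for the homeodomain list, -0.062 for neurogenic bHLH and -0.116 for the promoter list, but none was called, and the calls over the 8 lists went from 37 to 1; a shift between the libraries then counts as spread. With the promoter score regressed out, SOX was 0.015 and uncalled, homeodomain -0.0099 and POU4F -0.032 in place of 0.034. Thinning left 24 calls and put bHLH at 0.000842. The share of all motifs called was not counted without the block or in thinned cells. With all deposited barcodes POU4F was -0.0066. Leaving out 1 library gave Pax6 values from -0.0070 to 0.076 for POU4F, -0.031 to 0.011 for CRX and OTX, and -0.036 to 0.042 for ONECUT.

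The uncalled Pax6 values for CRX and OTX were 0.0012 with the promoter score out and 0.014 thinned, and for ONECUT -0.0026 without TMM, -0.00025 with a dispersion of 0, -0.0012 in DESeq2, -0.014 with the promoter score out and -0.0043 thinned. Other sign changes were Six3 for POU4F (-0.0097 thinned), PAX5 for SOX (0.022) and homeodomain (0.018) with the promoter score out, PAX5 for TEAD (-0.010 thinned) and SIX2 for ONECUT (0.016 thinned). The cause of these changes was not tested.

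The excess variation of Pax6, 11.7% as the mean of the libraries, was 16.5% with single counts as the unit of noise and 10.3% in the middle tertile of cells by total. The Spearman correlation of Pax6 with POU4F went from 0.061 to -0.028 with the promoter score out, with SOX from 0.16 to 0.041 (0.078 thinned), with TEAD from 0.19 to 0.115 (0.112 thinned), and with bHLH from -0.069 to -0.0050 thinned. At about 133 Pax6 counts a cell, counting noise limits single cells, and the comparisons rest on sums over many cells.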

Other observations

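Among the motifs of these families kept apart from the 7, PAX3 and PAX7 had identical counts, at 10.7 and 10.6 CPM, and had the opposite sign to Pax6 by the TEAD, SOX, homeodomain and promoter lists. PAX3 was lower in the cells richest in TEAD motifs, at -0.172 ± 0.017 (SE, adjusted p = 8.74e-05, edgeR), where Pax6 was higher, and higher by the ONECUT list, at 0.114 ± 0.029 (adjusted p = 0.000198, edgeR). PAX4 was called with the sign of Pax6 by the TEAD, SOX, homeodomain and promoter lists. Its difference was 0.133 ± 0.0028 by the homeodomain list (adjusted p = 1.05e-10, edgeR), 0.075 by SOX, 0.047 by TEAD and -0.070 by the promoter list.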
